A study of Drosophila melanogaster with 6 samples.

Results

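Genes that reside in the pericentromeric heterochromatin of chromosomes 2 and 3 of Drosophila melanogaster were followed in male larvae that lack roX function. The set was a given list of 10 genes, rl, Nipped-A, Nipped-B, Dbp80, p120ctn, Haspin, Parp, vtd, cta and Snap25, and each was matched by its current symbol or an older name. Of the 10 genes, 7 had a probe set that names a single gene and 5 passed the signal filter, out of 7801 genes tested in all. The 5 were Dbp80 and Snap25 on arm 3L, p120ctn and Haspin on arm 2R, and cta on arm 2L.

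Pericentromeric heterochromatin is the compact, repeat-rich chromatin next to the centromeres, packed by HP1 proteins on methylated histone tails. Most genes moved next to it are silenced, but a small number of essential genes lie within it and depend on that surrounding for normal expression. The MSL complex, which raises transcription of the male X chromosome, contains the noncoding RNAs roX1 and roX2. The fourth chromosome, which is rich in heterochromatin, has its own binding protein, Pof.

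The mutant group (3 arrays) had the genotype y+ w roX1- roX2-, with the roX1 allele SMC17A, over a Y chromosome. The control group (3 arrays) was y+ w roX1+ roX2- over a Y chromosome, so its males carried the roX2 mutation too, although their titles call them wild type. All were whole larvae of the third instar, with 50 larvae in each of 3 independent RNA preparations per genotype. The RNA was hybridised to 1-colour Affymetrix arrays, and the number of arrays limits the precision of each value. The comparison asks how expression changes when roX1 is lost in males that already lack roX2.

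Signals below are linear intensities, scaled so that the autosomal genes kept have a median of 100 on each array. Log2 differences are coded as mutant minus control, from the group means. A gene rose or fell where limma's Benjamini-Hochberg adjusted p, taken over all genes tested, was under 0.05. Correlations across genes were 0.972 to 0.991 within a group, and between groups 0.889 to 0.926. Genes across the genome were called often: 32.4% of all genes tested fell and 23.1% rose, and on chromosomes 2 and 3 these shares were 29.4% and 25.5%. Without rescaling the deposited values 21.9% of all genes fell and 30.8% rose: the median log2 difference of all genes moved up by 0.13, to 0.07, and rises made up 58.5% of the calls in place of 41.7%. Directions are therefore relative to the autosomal median.

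All 5 measured heterochromatin genes were lower in the mutant, and each passed the test. No member rose, and none had a rise at an unadjusted p under 0.05 (limma). Their log2 differences ran from -0.33 to -0.85 with a median of -0.51, against a median of -0.02 on chromosomes 2 and 3 and -0.06 over all genes tested. The count of 5 stands beside the 29.4% of genes of chromosomes 2 and 3 that fell. In each of the 5 all mutant arrays lay below all control arrays, as they did for 33.9% of genes of chromosomes 2 and 3. With 3 against 3 arrays an exact permutation test cannot go below p = 0.1, so the p-values here come from the fit over all genes. In whole larvae, fewer cells of a type and less RNA per cell cannot be told apart.

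**Figure D1:**
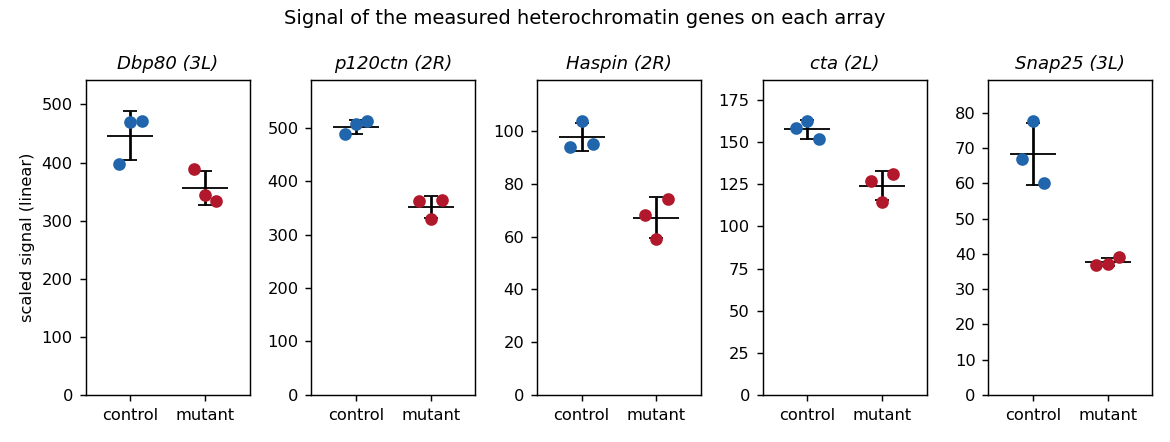
Scaled signal (linear, from 0) of the 5 measured heterochromatin genes on each control and mutant array, with the mean and SD of 3 arrays as bars. In every panel the 3 mutant arrays lie below the 3 control arrays, from Dbp80, where 389 and 398 nearly meet, to Snap25, where the groups are far apart.

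Of the members that act in chromosome cohesion and mitosis, Haspin had a usable level. Haspin is the kinase that phosphorylates a threonine of the histone H3 tail in mitosis. Its scaled signal was 68.1, 59.1 and 74.4 in the mutant against 94.1, 104 and 95.2 in the control. The highest mutant array lay well under the lowest control array. The mean was 67.2 ± 7.69 (SD, n = 3) in the mutant and 97.7 ± 5.34 (SD, n = 3) in the control, and the log2 difference was -0.54 (SE 0.104, limma adjusted p = 0.00304). With an offset of 50 added before the logarithm this difference was -0.34.

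Nipped-B, the loader of the cohesin ring, had a probe set under the filter. Its signal was 1.06, 1.34 and 1.61 in the mutant against 10.1, 2.93 and 3.46 in the control, all far below the median probe set (28.0). Mutant arrays were lower than control arrays, but values this dim carry no usable size, and control array 1 stood apart from the other controls. In the fit with no filter Nipped-B had an adjusted p = 0.0257 (limma). vtd, which encodes the Rad21 subunit of cohesin, has no probe set under its name in the table used and was not analysed here.

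The other chromatin genes of the list gave no usable level. Parp, listed now as Parp1, encodes the poly(ADP-ribose) polymerase that acts at DNA breaks and in chromatin loosening. It was dim on all arrays, at 4.04, 1.46 and 4.84 in the mutant against 3.38, 4.29 and 4.58 in the control, and the groups overlapped (adjusted p = 0.524 with no filter, limma). Nipped-A, the Tra1 scaffold of the SAGA and Tip60 acetyltransferase complexes, was not analysed here for want of a named probe set. The same holds for rl, which encodes the MAP kinase of the Ras pathway.

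Both signalling and adhesion genes that could be measured fell. cta encodes the concertina G protein alpha subunit, which relays the Fog signal in cells that constrict. Its signal was 127, 114 and 131 in the mutant against 158, 163 and 152 in the control. The groups were separate, with small spread inside each (SD 8.69 and 5.47, n = 3). cta fell by 0.35 on the log2 scale (SE 0.085, limma adjusted p = 0.00954), and its signal fell by 21.3%. A second probe set, shared between cta and CG40005 and therefore not assigned to either, stood at 106, 95 and 111 in the mutant against 143, 142 and 129 in the control. It gave a log2 difference of -0.41 (SE 0.092, adjusted p = 0.00659 over 9384 probe sets, limma).

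p120ctn encodes the p120 catenin, which binds the cadherin tail at adherens junctions. Its signal was 362, 328 and 365 in the mutant against 488, 506 and 513 in the control. The 2 groups were far apart relative to their spread, at 352 ± 20.5 and 502 ± 13 (SD, n = 3 each). The log2 difference was -0.51 (95% interval -0.69 to -0.34, limma adjusted p = 0.000869).

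Dbp80, a DEAD-box RNA helicase whose relatives act in mRNA export, had the smallest difference of the 5. Its signal was 389, 344 and 334 in the mutant against 398, 469 and 472 in the control. Mutant array 1 and control array 1 almost met, and the other arrays were clearly apart. The log2 difference of Dbp80 was -0.33 (95% interval -0.55 to -0.10, limma adjusted p = 0.0229). The call was lost without mutant array 2 (adjusted p = 0.0708), mutant array 3 (0.0681), control array 2 (0.0833) or control array 3 (0.085), within 0.00767 to 0.172 over all alternatives. It was lost as well without rescaling (log2 -0.20, adjusted p = 0.172, limma), as was that of cta (log2 -0.22, adjusted p = 0.0827, range over alternatives 0.00796 to 0.0827).

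Snap25, a SNARE protein of the plasma membrane that drives synaptic vesicle fusion, had the largest log2 difference of the 5 with no offset added. Its signal was 36.9, 37.3 and 39.1 in the mutant against 67.1, 77.8 and 60.3 in the control. The mutant arrays were nearly equal, and the lowest control array was still far above them. Snap25 fell by 0.85 on the log2 scale (95% interval -1.10 to -0.60, limma adjusted p = 0.000543), or by 0.43 with an offset of 50, where p120ctn had the larger difference (-0.46).

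Snap25 is a neuronal gene, and markers of the nervous system were set beside it. Over all genes tested 32.4% fell and 23.1% rose. Of 14 markers, 12 had a probe set and 5 were tested: Appl (log2 -1.02) and elav (-0.53), both X-linked, fell, none rose (also 0 at an unadjusted p under 0.05, limma), and Csp (0.14), futsch (0.33) and repo (-0.05) did not pass. Their summed signal was 487 to 533 in the mutant against 461 to 545 in the control. Csp made up most of this sum, with a mean of 374 in the mutant and 338 in the control. The 7 below the filter, ChAT, Rdl, VGlut, brp, cac, nSyb and para, read 0.901 to 24.4. The mutant mean of Appl (22.7) lay under the median probe set, so its size is uncertain. The log2 difference of elav lost its call without mutant array 2 or control array 3 and without rescaling (limma adjusted p from 0.00229 to 0.0592 over all alternatives), and it was -0.22 with an offset of 50. Appl and, with that limit, elav moved with Snap25. The summed marker signal, mostly that of Csp, overlapped between the groups, and the part of neuronal content in the Snap25 result was not tested.

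With no offset, the intervals order the 5 genes in part. Those of Snap25 (upper end -0.60) and of Dbp80 (lower end -0.55) or cta (lower end -0.54) do not meet, while that of Snap25 overlaps those of p120ctn (lower end -0.69) and Haspin (lower end -0.78). Neighbours in this order, Dbp80 and cta, cta and p120ctn, and p120ctn and Haspin, were not separated. Taken per array as deviations from the control mean, the median of the 5 genes was -0.47, -0.61 and -0.41 on the mutant arrays. On the control arrays it was -0.04, 0.08 and -0.04.

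The list shares a property its choice did not use: long gene spans. In the RefSeq annotation of the Release 6 plus ISO1 MT assembly the 10 genes have a median span of 45906 bp, from 11136 bp for cta to 225026 bp for Snap25. Tested genes of chromosomes 2 and 3 outside the pericentromeric stretches defined next have a median span of 2228 bp. Of 103 such genes spanning at least 50000 bp, 22 (21.4%) fell, with a median log2 difference of -0.01, and of 275 spanning 20000 to 50000 bp, 59 (21.5%) fell, with a median of 0.01. In the class of cta and p120ctn, 10000 to 20000 bp, 125 of 447 (28%) fell, with a median of -0.01. The members were spread over 4 signal classes of equal size, from Snap25 in the dimmest to Dbp80 and p120ctn in the brightest. Inside the stretches, the other genes of at least 50000 bp had 2 falls and 1 rise among 6 and a median of -0.11, while the 4 genes of 20000 to 50000 bp all fell, with a median of -1.06. The 8 genes of 10000 to 20000 bp there all fell as well, with a median of -0.34. Outside the stretches the share that fell was 25% in the dimmest class and 32.2% in the brightest. The other stretch genes were mostly bright: 25 lay in the brightest class, where 20 (80%) fell, and 4 in the dimmest, where 2 fell.

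The next question was whether other genes of the same regions behaved likewise. The stretch of an arm was taken from the listed gene farthest from the centromere (cta on 2L, Nipped-A on 2R, Snap25 on 3L and Parp1 on 3R) to the centromere end of the arm's sequence. The 4 stretches held 37 tested genes beside the 5 members. Of these 37, 28 fell (75.7%), 2 rose and 7 did not pass, against 29.1% falls and 25.6% rises among the 6594 genes of chromosomes 2 and 3 outside the stretches. Their median log2 difference was -0.31, and 35 of 37 values were negative. All mutant arrays lay below all control arrays for 31 of the 37 and above them for 2, against 33.9% and 29.1% of genes of chromosomes 2 and 3.

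The lowering was present on each mutant array. The median of the 37 genes, as deviations from the control mean, was -0.34, -0.37 and -0.26 in the mutant, while the 3 control values were -0.01, 0.03 and -0.04. The count of falls was 17 without control array 2 and 14 without rescaling, where 19.1% of genes outside the stretches fell and 34% rose. The distance between the median of the 37 and that of the remaining genes of chromosomes 2 and 3 was -0.30. Rescaling moves all log2 differences alike, so this distance could not change without it and is no check of the result.

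**Figure D2:**
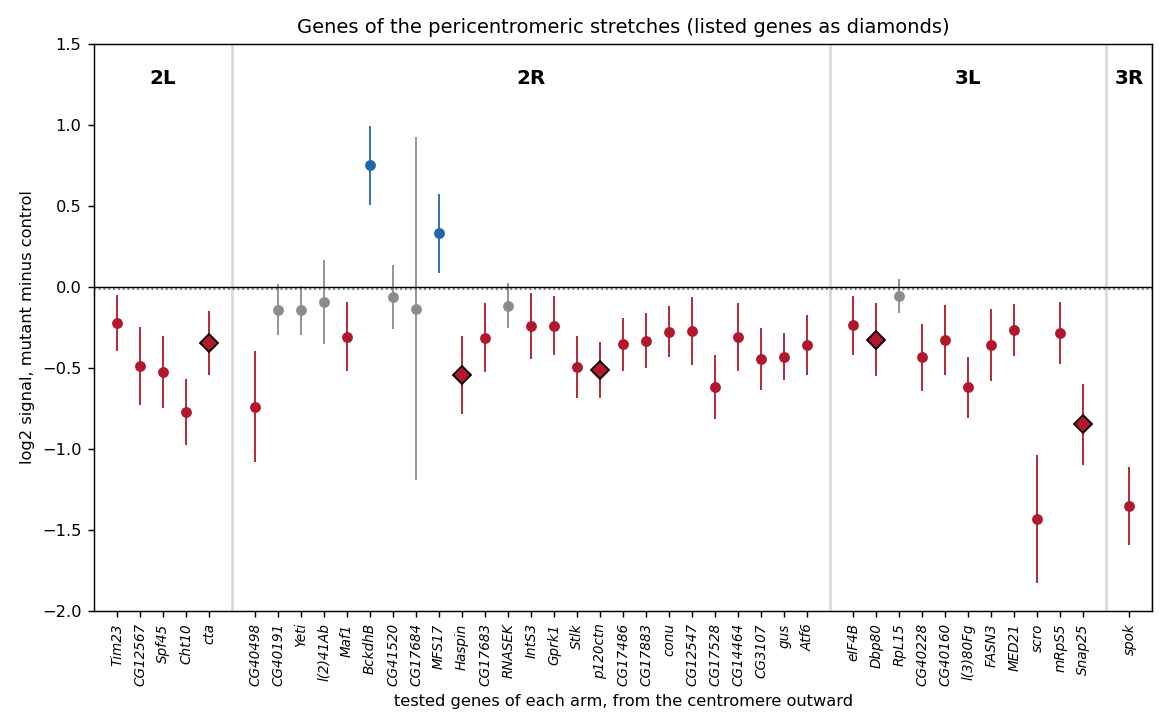
Log2 difference (mutant minus control) with its 95% interval for the 42 tested genes of the pericentromeric stretches, ordered from the centromere outward on each arm; diamonds are the listed genes, red marks a fall, blue a rise and grey no call, and the dotted line is the median of chromosomes 2 and 3 outside the stretches. All points of 2L and all but RpL15 on 3L are red, and the grey and blue points of 2R lie in its inner part, from RNASEK inward.

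On arm 2L all 4 other genes fell. Cht10, a chitinase of the cuticle, had the largest difference: its signal was 689, 628 and 549 in the mutant against 1082, 1074 and 1021 in the control (log2 -0.77, SE 0.0892, limma adjusted p = 0.00034). The 3 mutant arrays were all far below the controls. Spf45, a splicing factor, fell by 0.53 and CG12567 by 0.49. Tim23, a channel subunit for import into mitochondria, fell by 0.22. lt, the gene light, which acts in transport to the lysosome and is the classic heterochromatic gene of this arm, lies just outside the stretch as the nearest tested gene on the outer side of cta. Its signal was 197 to 206 in the mutant against 222 to 243 in the control, so the groups did not overlap, but it missed the threshold (log2 -0.20, limma adjusted p = 0.0547).

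Arm 2R held 23 other tested genes, of which 15 fell, 2 rose and 6 did not pass. The kinase-like gene Stlk, which adjoins p120ctn among the tested genes, had a signal of 108, 101 and 116 in the mutant against 153, 153 and 151 in the control and fell by 0.50. A second Stlk probe set gave -0.78. CG17528 fell by 0.62, and CG40498 fell by 0.74, although its mutant mean (22.3) lay under the median probe set and the size is uncertain. On the other side of p120ctn, CG17486 fell by 0.36.

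Other 2R genes that fell act in varied processes. They include gus, an adaptor of a ubiquitin ligase (log2 -0.43), Atf6, a transcription factor of the endoplasmic reticulum stress response (-0.36), Maf1, a repressor of RNA polymerase III (-0.31), IntS3, an Integrator subunit (-0.24), and Gprk1, a kinase of G protein-coupled receptors (-0.24). All 5 were on a list of known heterochromatin residents. In each of them the mutant arrays lay below the control arrays, but they were named among genes that fell. Such separation held for 21 of the 24 tested genes of that list and for 33.9% of genes of chromosomes 2 and 3.

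The 2 genes that rose both lie on the inner part of 2R. BckdhB, a subunit of the enzyme that breaks down branched-chain amino acids, had a signal of 509, 610 and 634 in the mutant against 377, 343 and 320 in the control (log2 0.75, SE 0.106, limma adjusted p = 0.000775). MFS17, a transporter of the major facilitator family and the nearest tested gene on the inner side of Haspin, had 120, 127 and 115 against 107, 97.8 and 84.2 (log2 0.33, limma adjusted p = 0.0277). Both had all mutant arrays above all control arrays, as did 29.1% of genes of chromosomes 2 and 3. The log2 difference of MFS17 lost its call without mutant array 2 (adjusted p = 0.0929), control array 2 (0.06) or control array 3 (0.0946), within 0.0085 to 0.0946 over all alternatives. On the outer side of Haspin, CG17683 fell by 0.31. Haspin thus lies, among the tested genes, between a gene that was higher in the mutant and a gene that was lower.

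On arm 3L 8 of the 9 other genes fell, with no rise (0 also by unadjusted p under 0.05, limma). scro, a homeobox gene of the nervous system, had a signal of 22.8, 16.6 and 25.8 in the mutant against 58.3, 63.8 and 51.7 in the control (log2 -1.43, SE 0.171, limma adjusted p = 0.000394); its mutant mean lay under the median probe set, and with an offset of 50 the difference was -0.59. l(3)80Fg fell by 0.62, and a second probe set of it gave -0.95. CG40228 fell by 0.43. Dbp80 lies between eIF4B, a translation initiation factor that fell by 0.24, and RpL15, a ribosomal protein of the large subunit. RpL15 was the gene of the 3L stretch that did not pass, at 2619, 2700 and 2819 in the mutant against 2774, 2873 and 2817 in the control (log2 -0.06, limma adjusted p = 0.324).

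Snap25, the outermost 3L member, lies between mRpS5, a mitochondrial ribosomal protein that fell by 0.29, and CG17698, whose groups overlapped. The 2 further probe sets of eIF4B stood at -0.24 and -0.13 and did not pass (adjusted p = 0.0629 and 0.136, limma). In all, 3 stretch genes had further probe sets above the filter, and of these 4 probe sets 2 fell and none rose.

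The stretch of arm 3R held 1 tested gene beside the dim Parp1. This was spok (spookier), a cytochrome P450 of ecdysone synthesis in the prothoracic gland. Its signal was 48.7, 55.1 and 59.2 in the mutant against 149, 141 and 126 in the control. The control arrays were more than 2 times the mutant arrays. spok fell by 1.35 on the log2 scale (SE 0.105, limma adjusted p = 0.000101), or by 0.85 with an offset of 50.

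The genes farther out along the arms were described in the same way. As many tested genes next to each stretch on the outer side (37 in all) had 19 falls (51.4%) and 2 rises, with a median of -0.22. A stretch ends at a listed gene and not at the edge of heterochromatin. These outer genes thus still include known residents, among them lt, CG40006 and d4. In windows of 25 tested genes counted from the centromere, the innermost window had a median of -0.31 on 2R, the second lowest of 66 windows of that arm. On 3L it was -0.33, the lowest of 62 windows, and on 2L it was -0.20, rank 10 of 59 from the lowest. On 3R the innermost window stood at -0.01, rank 38 of 77 windows, although spok lies in it. The second window was at -0.27 on 2L and -0.22 on 2R, at 0.11 on 3L and, with 9 falls and 8 rises, at -0.15 on 3R. Differences between windows were not tested.

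**Figure D3:**
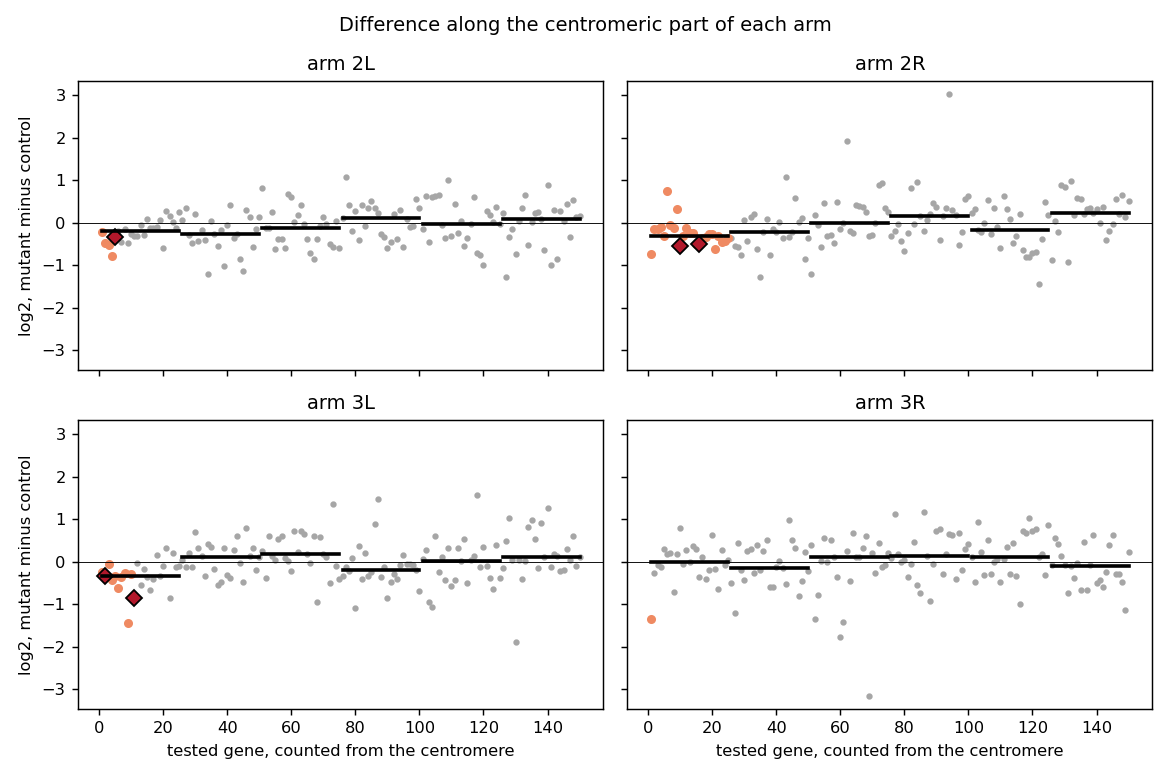
Log2 difference (mutant minus control) of the first 150 tested genes of each arm, counted from the centromere; orange points are stretch genes, diamonds listed genes, and black lines the medians of windows of 25 genes. The innermost line lies below 0 on 2L (-0.20), 2R (-0.31) and 3L (-0.33) and near 0 on 3R (-0.01).

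Chromosome 4, X and some windows far from the centromeres also held many falls, and their difference from the stretches was not tested. The lowest window of 2L, from Cdk5alpha to Npc1a, had 21 falls among its 25 genes and a median of -0.56. The lowest of 3R, from veli to Nup37, had 17 falls and a median of -0.58, and another of 2L, from CG7778 to CG8460, had 18 falls and a median of -0.36. All 3 medians were below those of the innermost windows. On chromosome 4, 39 of 48 genes (81.2%) fell and no gene rose (limma, 0 also at an unadjusted p under 0.05), with a median of -0.47. On X 48.1% of 1111 genes fell and 10.4% rose, with a median of -0.29. The median of the 37 stretch genes, -0.31, lay between these 2 medians.

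**Figure D4:**
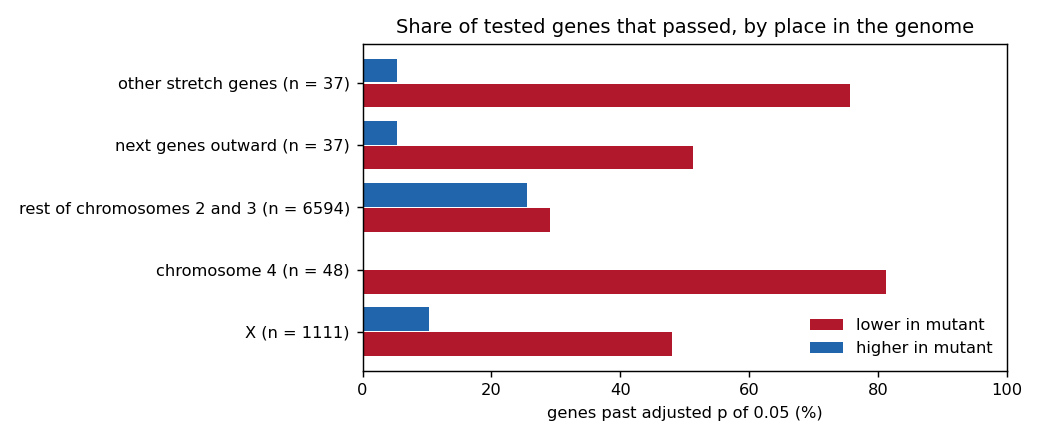
Percent of tested genes past an adjusted p of 0.05 (limma), lower (red) or higher (blue) in the mutant, for the stretch genes without the listed members, the same number of genes next to them, the rest of chromosomes 2 and 3, chromosome 4 and X. Falls make up 75.7% in the stretches, 51.4% just outside and 29.1% in the rest of chromosomes 2 and 3. The genes just outside still include known heterochromatin residents, among them lt, CG40006 and d4.

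A list of other genes described as residents of heterochromatin, which overlaps the stretches, gave a like count. Of 35 names, 30 had a probe set and 24 were tested. Of these, 18 fell (75%), BckdhB rose and 5 did not pass, with a median of -0.31. On chromosomes 2 and 3, 29.4% of genes fell and 25.5% rose. Of the 24, 17 lie in the stretches (14 falls). Of the 7 outside them 4 fell, CG10417 (-0.43), CG17493 (-0.30), CG40006 (-0.47) and d4 (-0.37), and no gene rose (limma, 0 also at an unadjusted p under 0.05). These 4 were named as they make up a count of fewer than 5. Without rescaling 9 of the 24 fell.

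Proteins that build or modify heterochromatin were set beside the genes that reside in it. Of 13 tested, 6 fell and 1 rose (46.2% and 7.69%), with a median of -0.19. The shares over all genes tested were 32.4% and 23.1%. The HP1 gene itself passed narrowly as a fall, with a mean of 431 in the mutant against 496 in the control (log2 -0.20, limma adjusted p = 0.0421). HP1b (-0.37, X-linked), HP4 (-0.25) and JIL-1 (-0.63) fell too, and the mutant mean of JIL-1 (25) lay under the median probe set. HP5 (log2 -1.21, X-linked) and HP6 (-0.66), both heterochromatin proteins by name, fell. The mutant mean of HP5 (23) lay under the median probe set, and its difference was -0.50 with an offset of 50. Pof, the protein that binds chromosome 4, rose by 0.76. Without rescaling 3 of the 13 fell and 2 rose.

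Partners of the members in their own pathways moved in both directions in most lists. The count of each list stands beside the 32.4% of all genes tested that fell and the 23.1% that rose. Of 12 tested genes of cohesin, condensin and their regulators, 3 fell and 2 rose (median -0.05): pim, the securin, fell by 0.53, and eco, the cohesin acetyltransferase (0.51), and Cap-D2, a condensin subunit (0.46), rose. Of 5 genes of the chromosomal passenger complex and mitotic kinases, which act with Haspin, Det, the survivin homologue, fell by 0.58, Bub1 (0.46) and aurB (0.27) rose, and 2 did not pass (median 0.27). The log2 difference of aurB lost its call without mutant array 2 or 3 or control array 2 (limma adjusted p over all alternatives from 0.0042 to 0.0623).

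Of 22 genes of the SAGA and Tip60 complexes, to which Nipped-A belongs, 12 fell and 6 rose (median -0.32). These shares were 54.5% and 27.3%, against 32.4% and 23.1% over all genes tested. All 5 X-linked ones fell, among them e(y)2 (-0.83) and Taf9 (-0.73), and on the other chromosomes 7 of 17 fell and 6 rose, with Eaf6 at -0.63. Of 12 genes of the Ras and MAP kinase pathway of rl, 2 fell and 2 rose (median -0.12), with the adaptor drk at -0.71, the scaffold cnk at 0.60 and the receptor Egfr at 0.46.

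The list set beside cta had mostly falls, many of them in other G protein alpha subunits. Of 8 tested genes of the Fog and concertina pathway, which included other G protein alpha subunits, 7 fell, none rose (limma, 0 also at an unadjusted p under 0.05), and the median was -0.53, against 32.4% falls over all genes. The alpha subunit genes Galphaq (-0.91), Galphao (-0.78) and Galphas (-0.45), all on 2R, and Galphai (-0.42) on 3L fell. Of the rest, T48 (-0.70) and the X-linked fog (-0.62) and ric8a (-0.23) fell, and the X-linked Rok did not pass. On X 48.1% of all tested genes fell. Over the alternatives 5 to 7 of the list fell.

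The list set beside p120ctn held adherens junction genes and genes of apical cell polarity, such as sdt. Of its 8 tested genes, 2 fell and 1 rose (median -0.09). alpha-Cat, the catenin that links cadherins to actin, fell by 0.37. The X-linked genes Vinc (-0.50) and sdt (0.33) passed in opposite directions. The log2 difference of Vinc lost its call without mutant array 2 or 3 or control array 1 or 3 (limma adjusted p from 0.00241 to 0.0999 over all alternatives). For the log2 difference of sdt the call was lost without any 1 array other than control array 3 (from 0.0138 to 0.101). Of 9 SNARE and vesicle fusion genes beside Snap25, 5 fell and none rose (limma, 0 also at an unadjusted p under 0.05; median -0.31), with unc-13 on chromosome 4 at -0.61, Sec22 on X at -0.55 and Vti1a at -0.42. The 55.6% of SNARE and vesicle fusion genes that fell stands beside 32.4% over all genes tested, where 23.1% rose. Without rescaling 3 of these 9 genes fell and 1 rose.

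Of 8 genes of DNA strand break repair beside Parp, nbs fell by 0.35, rad50 (0.51) and Tnks, a tankyrase (0.62), rose, and 5 did not pass (median 0.03). Of 16 genes of mRNA export and related helicases beside Dbp80, 5 fell and 3 rose (median -0.07). These shares, 31.25% and 18.75%, were near the 32.4% and 23.1% over all genes tested. thoc6 fell by 1.06, while Nup214, the nucleoporin that binds the human relative of Dbp80, rose by 0.85 and tho2 by 0.80. The lower group mean of thoc6 (21.2) and of tho2 (21.9) lay under the median probe set, and with an offset of 50 the differences of thoc6, tho2 and Nup214 were -0.40, 0.29 and 0.40.

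Markers of larval tissues differed between the groups as well, and their part in the values above was not tested. Their counts stand beside the 32.4% of all genes tested that fell and the 23.1% that rose. Fat body markers split, with FASN1 (2.35), Lsd-2 (0.57) and Fbp2 (0.29) higher, Fbp1 (-0.26) lower and Lsp2 (-0.10) not passing. The fall of Fbp1 did not pass without rescaling or with quantile normalization (limma adjusted p = 0.0822 and 0.0517, with 0.0025 to 0.0822 over all alternatives), and the summed signal was 7491 to 8748 in the mutant against 7296 to 7463 in the control. Of 6 muscle markers 4 rose, sls (1.97), up (0.77), Tm2 (0.91) and Act87E (0.53), and Mlc2 (-0.21) and TpnC73F (-0.16) did not pass (summed signal 3250 to 4399 against 2780 to 3222). Of 8 salivary gland markers 5 fell, Sgs4 (-0.68), Sgs8 (-0.23), Sgs3 (-0.17), Sgs5 (-0.15) and Sgs7 (-0.15), and Sgs1 (0.06), fkh (0.03) and sage (0.01) did not pass (12569 to 13053 against 15163 to 15529); 1 of the 8 fell with quantile normalization or without rescaling. Of 2 cuticle markers Cpr65Av rose by 2.10 and Lcp65Ac stood at 0.25 (283 to 500 against 149 to 300).

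Of 9 tested markers of imaginal discs and dividing cells, 4 fell, ci (-0.56), en (-0.64), vg (-0.67) and dac (-0.51), and nub rose by 0.35. CycB (0.20), Mcm2 (0.19), Dll (-0.28) and PCNA (-0.22) did not pass. The falls, 44.4% of the 9 markers, stand beside 32.4% over all genes tested. The summed signal was 869 to 971 in the mutant against 1074 to 1134 in the control. The brightest of them, ci (mean 274 against 405), lies on chromosome 4, where 81.2% of genes fell. The rise of nub passed narrowly (adjusted p = 0.0465, limma), and without mutant array 1 or 2 or control array 1 or 2 no gene of this list rose. Without mutant array 2 the log2 difference of vg lost its call (limma adjusted p = 0.0551, from 0.000559 to 0.0551 over all alternatives). Of 4 testis markers, Taf12L (-0.72), sa (-0.50) and bam (-0.88) fell and betaTub85D rose by 0.62, while 6 more were below the filter. Their summed signal was 1117 to 1216 in the mutant against 872 to 972 in the control. Most of this sum was betaTub85D, with a mean of 1001 in the mutant and 650 in the control. Each of these tissues had markers above the filter, which the label of whole larvae calls for.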

How the data were processed

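Expression was measured in 6 samples on Affymetrix arrays. The deposited table holds 1 linear intensity per probe set and array, and GCOS 1.2 is named per the submitters' processing notes. Per the labels' design text, the authors compared perfect match with mismatch probes for presence calls and scaled autosomal transcripts to a median of 100 on each array. The medians of the deposited columns, 105 to 107 in the mutant against 100.3 to 101 in the control, do not settle which genes they scaled on. How probes were summarised is not given here. The values are linear and not centred.

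A platform annotation table, which can be old, gave the gene names, updated to RefSeq (Release 6 plus ISO1 MT, used for names, gene order and spans). Of 18769 probe sets that are no controls, 13647 had 1 gene, 402 several and 4720 none. Of those with 1 gene, 12 matched no RefSeq gene. The upper 50% by mean log2 signal were kept (9384), and the brightest probe set stood for a gene (7801 genes). Values of 0 or less were replaced by the smallest positive value. Each array was scaled so that kept genes of chromosomes 2, 3 and 4 have a median of 100. Differences were fitted with lmFit and trended eBayes of limma 3.58.1 (R 4.3.3) on log2 signals, with group as the only term and Benjamini-Hochberg adjustment. The script was tested on simulated data.

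The members, lists and stretches were chosen with earlier results of these data known. Named genes were the 10 members, up to 3 passing genes of smallest p with separate groups per list, up to 3 of the largest rises and falls per stretch, and all tested genes of short marker lists. Nearest neighbours, list members inside and outside the stretches, spans and windows were added after the data were seen. So were the genes Tim23, CG17486, gus, Atf6, Maf1, IntS3, Gprk1, CG17683, eIF4B, RpL15, mRpS5, lt, the nervous system markers and bam, named from their place or list. The same holds for Galphai, T48, fog, ric8a, Rok, nub, dac, CycB, Mcm2, Dll, PCNA, HP1b, HP4, JIL-1 and the HP1 gene. Alternatives are in the closing section.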

Additional observations from a re-analysis of the deposited data

How the results depend on the processing

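Each value was recomputed under 16 settings. The fall of Haspin, p120ctn and Snap25 kept its direction and its call in all that were run (Haspin and Snap25 were not among the brightest 25%). No member reversed. Without rescaling 3 of 5 members fell, the log2 difference of Dbp80 was -0.20 and that of cta -0.22 (neither passed), 14 of the 37 other stretch genes fell, their median was -0.19, and 49 listed functional and marker genes fell (77 as reported); this setting raises all differences by 0.13. Keeping the upper 25% of probe sets left 3 members, all of which fell, with 50 falls and 13 rises of listed genes, since fewer genes were tested. With no filter 4 stretch genes rose. Taking the 20 tested genes on each side of a member gave 54 falls, 12 rises and a median of -0.20 over 117 genes, and the 37 genes next to the stretches had a median of -0.22. Leaving out each array in turn gave 4 to 5 members that fell, 17 to 28 falls and 1 to 2 rises of stretch genes, a log2 difference of -0.41 to -0.28 for Dbp80, and 61 to 79 falls of listed genes.

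The labels number the arrays 1 to 3 in each group. Same-numbered arrays did not deviate together from their group means (correlations -0.34, -0.06 and -0.38 over genes). Between differently numbered arrays the correlations ran from -0.36 (mutant array 2, control array 3) to 0.51 (mutant array 1, control array 3). Deviations within a group of 3 are tied to one another, so these correlations cannot exclude that the numbers pair the arrays, nor show another pairing. With the replicate number as a block the log2 difference of Dbp80 stayed at -0.33 and did not pass (adjusted p = 0.0662, limma); 4 members and 20 stretch genes fell. Of 933 values for the 60 other genes named by the selection rule, 904 kept direction and call, 29 lost the call and none reversed. The causes were not tested. Dim signal limits Nipped-B and Parp1, and detection calls were not used here.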
